A study of Mus musculus with 11 samples.

Results

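The transcripts described here encode complement components, a regulator and receptors in microglia, the brain's own macrophages, cultured from adult mice and given a Toll-like receptor 2 (TLR2) agonist, interferon-gamma (IFN-gamma) or both. The 9 genes were taken by symbol from the deposited table of 34745 genes: C1qa, C1qb, C1qc and C4b of the classical pathway, the shared component C3, Cfb and Cfp of the alternative pathway, and the receptors C3ar1 and C5ar1. Complement is a cascade of plasma and tissue proteins that tags particles for uptake and releases small peptides that attract and activate leukocytes. C1q, built from the products of C1qa, C1qb and C1qc, starts the classical pathway, which cleaves C4 and C2 to form an enzyme that cleaves C3; factor B (Cfb) forms the C3-cleaving enzyme of the alternative pathway, and properdin (Cfp) stabilises it. Microglia are a main source of C1q in the brain, where C1q and C3 tag synapses for removal by microglia.

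Per the labels' protocols, C57BL/6 mice of 6 to 8 weeks gave the cells, taken from the cerebrum. In every group the culture lasted 10 to 14 days, and its medium held TGF-beta1 (5 ng/ml) as well as M-CSF (10 ng/ml). The libraries fell into 4 groups: Pam3CSK4, a synthetic lipopeptide agonist of TLR2, at 100 ng/ml for 24 h (n = 2); IFN-gamma at 20 ng/ml for 24 h (n = 3); Pam3CSK4 followed by IFN-gamma at the same doses and times, called the combined group (n = 3); and untreated Control (n = 3). For combined replicates 2 and 3, 1 label field ends the agonist's name in another digit than for replicate 1; all 3 were read as given Pam3CSK4. The labels do not say whether the agonist was removed before IFN-gamma, when cells of each group were harvested, or whether replicates came from separate animals or cultures, so the p-values measure the spread between these libraries, which may be technical.

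All 9 genes lie on the minus strand of the mm10 build and are annotated as protein coding. C1qb (chr4:136880129-136886187), C1qc (chr4:136889804-136893065) and C1qa (chr4:136895917-136898803) are neighbours. C4b (chr17:34728380-34743882) and Cfb (chr17:34856374-34862518) share a region of chromosome 17 with C2, and C3 lies further along it (chr17:57203970-57228136). Cfp is on chromosome X (chrX:20925454-20931555), C3ar1 on chromosome 6 (chr6:122847138-122856161) and C5ar1 on chromosome 7 (chr7:16246743-16259540). Promoter sequences from RefSeq (GRCm38.p6, 300 bases around each start) were held for 6 of the 9 genes: C1qb, C1qc, C3, Cfp, C3ar1 and C5ar1.

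In the data below the C1q subunits moved together. Like C3 they rose with IFN-gamma alone, but unlike C3 they did not rise with Pam3CSK4 alone. For this reason the promoters of C1qb (chr4:136886151-136886450), C1qc (chr4:136892865-136893164) and C3 (chr17:57228087-57228386) are shown 5′ to 3′ on the minus strand. Capitals mark matches to the motifs searched.
C1qb: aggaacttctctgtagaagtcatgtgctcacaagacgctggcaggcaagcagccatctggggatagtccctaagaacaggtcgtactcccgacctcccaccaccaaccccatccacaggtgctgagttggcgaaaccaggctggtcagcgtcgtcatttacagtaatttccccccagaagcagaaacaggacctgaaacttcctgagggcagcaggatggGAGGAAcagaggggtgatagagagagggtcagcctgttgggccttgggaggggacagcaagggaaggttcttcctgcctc
C1qc: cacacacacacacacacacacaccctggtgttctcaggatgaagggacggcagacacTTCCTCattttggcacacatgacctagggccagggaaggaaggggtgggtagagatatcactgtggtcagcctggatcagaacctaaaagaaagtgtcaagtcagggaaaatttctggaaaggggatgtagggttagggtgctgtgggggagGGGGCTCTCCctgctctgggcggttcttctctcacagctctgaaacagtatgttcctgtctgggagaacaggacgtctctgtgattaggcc
C3: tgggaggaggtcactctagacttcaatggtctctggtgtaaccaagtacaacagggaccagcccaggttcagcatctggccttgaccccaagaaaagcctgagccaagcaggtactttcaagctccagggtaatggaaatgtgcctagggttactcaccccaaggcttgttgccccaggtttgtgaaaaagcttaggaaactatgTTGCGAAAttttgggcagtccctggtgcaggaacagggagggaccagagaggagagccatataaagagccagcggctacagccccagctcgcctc
Both strands were searched for the PU.1 core GAGGAA, the C/EBP half-palindrome TTGCNNAA, the gamma-activated site TTCNNNGAA, the interferon-stimulated response element and the NF-kappaB consensus. PU.1 and C/EBP are factors of myeloid cells, and NF-kappaB acts downstream of TLR2. The PU.1 core occurred in C1qb (first base at -30 from the start), in C1qc (-193) and at 7 and 23 in Cfp, against 28.3% of all 32851 RefSeq promoters. The C/EBP motif occurred in C3 alone of the 6 (first base at -45), against 10.8% of all promoters, and the NF-kappaB consensus in C1qc alone (-41), against 4.51%. The gamma-activated site and the interferon-stimulated response element had no match in these 6 windows, against 8.3% and 3.44% of all promoters. No match overlapped another.

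The libraries held 15033702 to 20321017 counts over 15730 to 18185 genes. Of 14 microglial marker genes, 12 were at 1 FPKM (fragments per kilobase of transcript, scaled to library size) or more in every library given Pam3CSK4 and 14 in every other library. The third Control library, the first IFN-gamma library and the third combined library stood apart: 6 to 9 of 12 mural cell and fibroblast markers were at 1 FPKM or more there, with a summed level of 69.7 to 2276 FPKM, against 1 or 2 markers and 17.5 to 63.5 FPKM in the other 8 libraries. Acta2 and Col1a1, 2 defining genes of such cells, were at 865 and 430 FPKM in Control replicate 3 but at 1.41 and 0.139 FPKM or less in those 8. The 5 neuron markers summed to 3.51 to 10.7 FPKM in the same 3 libraries, where 1 marker reached 1 FPKM, and to at most 0.418 FPKM in the other 8. The 7 astrocyte markers summed to 31.9 FPKM in Control replicate 3 and to at most 3.69 FPKM in every other library. Where a call of the 9 genes changed without these 3 libraries, it is given both ways, with the 3 or the Control library alone left out, and the part of those transcripts in the results was not tested. In bulk RNA, fewer cells of a type and less RNA per cell cannot be told apart.

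Each treatment left a different pattern across the complement genes. With Pam3CSK4, C3, Cfb, Cfp and C3ar1 were higher than in Control and the classical genes were not called; with IFN-gamma, all 4 classical genes, C3, Cfb and Cfp were higher and both receptors lower. In the combined group, C3 and Cfb were at their highest levels, while the C1q subunits and C4b were lower than with IFN-gamma alone. Differences were tested with edgeR's quasi-likelihood test on the deposited counts, with Benjamini-Hochberg adjustment over 10938 genes and a threshold of 0.05 for calling a gene. Against Control, Pam3CSK4 had 4 of the 9 genes called, all higher (41.3% of all tested genes were called, 19.8% higher and 21.4% lower); IFN-gamma had 7 called higher and 2 lower (41.6% of all tested genes called, 20.0% higher and 21.6% lower); and the combined group had 5 higher and 1 lower (47.3% called, 23.2% higher and 24.2% lower). These 3 comparisons share the Control libraries. The share called with Pam3CSK4 is close to that over all genes, so that count by itself sets nothing apart. The median log2 change of the 9 genes was 0.24, 1.17 and 1.49 in these comparisons, beside -0.04, -0.07 and -0.04 over all tested genes.

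**Figure D1:**
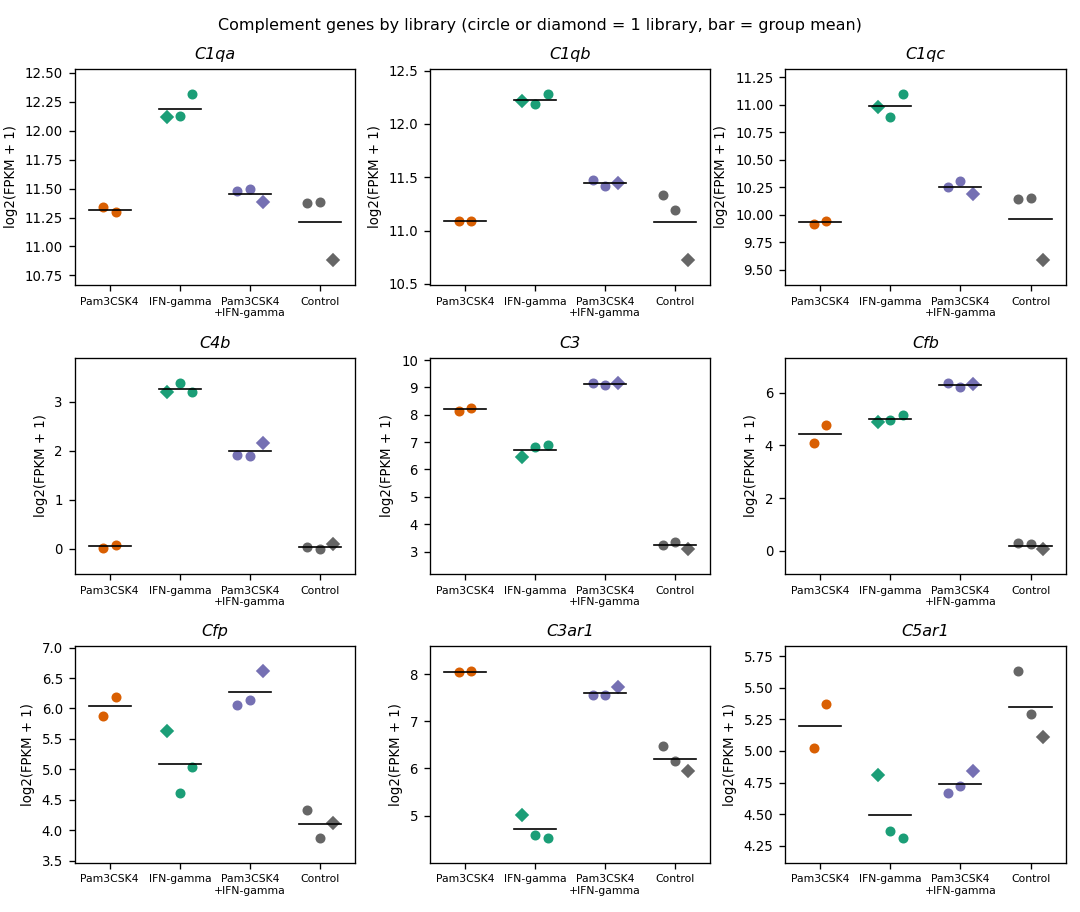
FPKM of the 9 genes as log2(FPKM + 1) in each of the 11 libraries, by group. Circles and diamonds are libraries, diamonds the 3 with mural cell and fibroblast transcripts (the third of Control, the first of IFN-gamma and the third of the combined group), and bars are group means; each panel has its own vertical range, which does not start at 0. The C1q subunits are highest in the 3 IFN-gamma libraries, C3 and Cfb in the 3 combined libraries, and C3ar1 in the 2 Pam3CSK4 libraries.

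The C1q subunits were among the most abundant transcripts of every group. C1qb ranked 14 by mean FPKM in Pam3CSK4 cells, 5 in IFN-gamma cells, 12 in combined cells and 17 in Control cells. C1qa was at 2593 and 2512 FPKM in the Pam3CSK4 libraries, 4441, 4468 and 5114 FPKM in the IFN-gamma libraries, 2856, 2894 and 2670 FPKM in the combined libraries and 2654, 2677 and 1886 FPKM in the Control libraries. The IFN-gamma libraries were thus all above every other library, and Control replicate 3, a library with fibroblast transcripts, was the lowest. C1qb was at 2176 and 2184 FPKM with Pam3CSK4, 4740, 4659 and 4980 FPKM with IFN-gamma, 2840, 2743 and 2789 FPKM in the combined group and 2581, 2339 and 1690 FPKM in Control. C1qc was at 967 and 981 FPKM with Pam3CSK4, 2016, 1892 and 2195 FPKM with IFN-gamma, 1216, 1269 and 1168 FPKM in the combined group and 1127, 1133 and 768 FPKM in Control. The combined libraries of C1qb and C1qc lay above those given Pam3CSK4 alone and above Control, without overlap, and below those given IFN-gamma alone.

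With IFN-gamma, C1qa, C1qb and C1qc rose by 1.05 ± 0.18, 1.21 ± 0.18 and 1.10 ± 0.19 log2 units over Control (SE; edgeR adjusted p = 0.00126, 0.000553 and 0.00121). With Pam3CSK4, their log2 changes against Control were 0.05 ± 0.20, -0.05 ± 0.20 and -0.08 ± 0.21 (edgeR adjusted p = 0.847, 0.867 and 0.770), with approximate 95% intervals from -0.34 to 0.44, -0.44 to 0.34 and -0.49 to 0.32. Without Control replicate 3 those of C1qb and C1qc were -0.24 and -0.28 and passed the test (edgeR adjusted p = 0.0259 and 0.0292), while that of C1qa was -0.13 and did not (0.290). In the combined group, the changes against Control were 0.30 ± 0.18, 0.42 ± 0.18 and 0.35 ± 0.19, none of them called (edgeR adjusted p = 0.195, 0.0803 and 0.152); without Control replicate 3, C1qb was called at 0.22 (0.0262).

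Giving Pam3CSK4 before IFN-gamma is the comparison that the study's title names. Of the 9 genes, 4 were called higher and 4 lower in the combined group than with IFN-gamma alone, against 16.8% of all tested genes higher and 17.3% lower (34.1% in all). The 4 lower genes were the classical ones: C1qa, C1qb and C1qc fell by 0.75 ± 0.18, 0.79 ± 0.18 and 0.75 ± 0.19 log2 units (edgeR adjusted p = 0.00974, 0.00733 and 0.0115). The 4 higher genes were C3, Cfb, Cfp and C3ar1. These 8 calls held when each of the 11 libraries was left out in turn and without the 3 libraries with fibroblast transcripts. The microglial markers had mean log2(FPKM + 1) values of 5.15 to 5.34 in the combined libraries and 5.95 to 6.09 in the IFN-gamma libraries. They were at 5.635 and 5.51 in the Pam3CSK4 libraries and 6.47 to 7.14 in the Control libraries. Their part in the lower C1q level was not tested.

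Within a library the 3 subunits kept close proportions. The C1qa to C1qb ratio of FPKM was 1.15 to 1.19 with Pam3CSK4, 0.937 to 1.03 with IFN-gamma, 0.958 to 1.06 in the combined group and 1.03 to 1.15 in Control. Together the subunits took 0.710 to 0.714% of all counts with Pam3CSK4, 1.38 to 1.55% with IFN-gamma, 0.832 to 0.872% in the combined group and 0.545 to 0.799% in Control. Over the 11 libraries, each subunit's log2(FPKM + 1) had its highest Pearson correlations, among tested genes, with the other two subunits (r = 0.983 to 0.993, given as a description). These points share group, depth and library.

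C4b encodes C4, the classical component cleaved after C1. It had 2 and 6 counts in the Pam3CSK4 libraries, 859, 1113 and 769 in the IFN-gamma libraries, 352, 345 and 426 in the combined libraries and 2, 0 and 8 in the Control libraries. That is 0.0174 and 0.0613 FPKM with Pam3CSK4, 8.22, 9.46 and 8.09 FPKM with IFN-gamma, 2.77, 2.70 and 3.46 FPKM in the combined group and at most 0.0710 FPKM in Control. C4b was thus at or near 0 in both groups without IFN-gamma and at 2.70 FPKM or more in every library given it. The pooled counts, scaled to library size, were 265 times as high with IFN-gamma as in Control (exact 95% interval 144 to 554, counting error only), and the fitted log2 change was 8.13 ± 0.53 (edgeR adjusted p = 4.48e-06). With Pam3CSK4 the ratio to Control was 1.15 (0.395 to 3.24), on 8 and 10 counts, so a difference was not detectable at this depth. The combined group was above Control (6.59 ± 0.52, edgeR adjusted p = 8.97e-06) and below IFN-gamma alone (-1.54 ± 0.35, 0.00875). Control replicate 3 held 8 of the 10 Control counts, and without it the edgeR changes against Control were 9.60 with IFN-gamma and 8.06 with both. C4a, a near-identical neighbour, was at 0.0825 to 0.216 FPKM, and how reads shared by the pair were counted is not given in the sources used here.

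C3, on which the pathways converge, was at 282 and 304 FPKM in the Pam3CSK4 libraries, 86.0, 111 and 119 FPKM in the IFN-gamma libraries, 573, 537 and 578.5 FPKM in the combined libraries and 8.35, 9.24 and 7.55 FPKM in the Control libraries. The 4 groups did not overlap, in the order combined, Pam3CSK4, IFN-gamma, Control. By mean FPKM, C3 ranked 122 with Pam3CSK4, 371 with IFN-gamma, 64 in the combined group and 4143 in Control. Its log2 changes against Control were 5.11 ± 0.20 with Pam3CSK4, 3.75 ± 0.18 with IFN-gamma and 6.15 ± 0.20 with both (edgeR adjusted p = 1.04e-07, 2.49e-07 and 1.93e-08). The combined group exceeded IFN-gamma alone by 2.40 ± 0.17 (edgeR adjusted p = 4.60e-06) and Pam3CSK4 alone by 1.05 ± 0.19 (0.00593). The call against Pam3CSK4 alone was lost without Pam3CSK4 replicate 1 or 2 (edgeR adjusted p = 0.0696 and 0.05002), which leaves 1 library in that group.

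Cfb, the protease component of the alternative pathway, showed the largest log2 changes of the 9 genes in the 3 comparisons against Control, apart from C4b with IFN-gamma. It had 1399 and 1959 counts with Pam3CSK4, 2271, 2741 and 2480 with IFN-gamma, 8027, 7165 and 7487 in the combined group and 15, 14 and 4 in Control. Its levels were 15.9 and 26.3 FPKM with Pam3CSK4, 28.5, 30.6 and 34.2 FPKM with IFN-gamma, 82.9, 73.5 and 79.9 FPKM in the combined group and 0.208, 0.184 and 0.0465 FPKM in Control. Again no groups overlapped, and here IFN-gamma stood above Pam3CSK4. The log2 changes against Control were 7.16 ± 0.46, 7.83 ± 0.46 and 9.16 ± 0.48 with Pam3CSK4, IFN-gamma and both (edgeR adjusted p = 4.87e-06, 2.10e-06 and 6.54e-07). The combined group was above IFN-gamma alone by 1.33 ± 0.33 (edgeR adjusted p = 0.0120) and above Pam3CSK4 alone by 2.00 ± 0.39 (0.0114); without Pam3CSK4 replicate 1 the second was 1.68 and not called (0.128). The predicted gene Gm20547 overlaps Cfb on the same strand and was itself at 0.0492 to 8.31 FPKM. With its counts added to those of Cfb the 3 changes against Control were 5.84, 6.59 and 7.76 with Pam3CSK4, IFN-gamma and both, all called.

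Cfp encodes properdin, which regulates the alternative pathway by prolonging the life of its C3-cleaving enzyme. It was at 57.9 and 71.9 FPKM with Pam3CSK4, 48.3, 23.4 and 31.8 FPKM with IFN-gamma, 65.5, 69.4 and 96.6 FPKM in the combined group and 19.2, 13.7 and 16.3 FPKM in Control. Every treated library was above every Control library, and within the IFN-gamma and combined groups the library with fibroblast transcripts was the highest. The log2 changes against Control were 1.97 ± 0.28, 1.17 ± 0.26 and 2.33 ± 0.27 with Pam3CSK4, IFN-gamma and both (edgeR adjusted p = 0.000454, 0.00552 and 7.51e-05), and 1.92, 0.81 and 2.08 without the 3 libraries with fibroblast transcripts, still called. Cfp was 1.16 ± 0.26 higher in the combined group than with IFN-gamma alone (edgeR adjusted p = 0.00693). Against Pam3CSK4 alone the difference was 0.36 ± 0.29 and not called (0.544; approximate 95% interval -0.21 to 0.92).

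**Figure D2:**
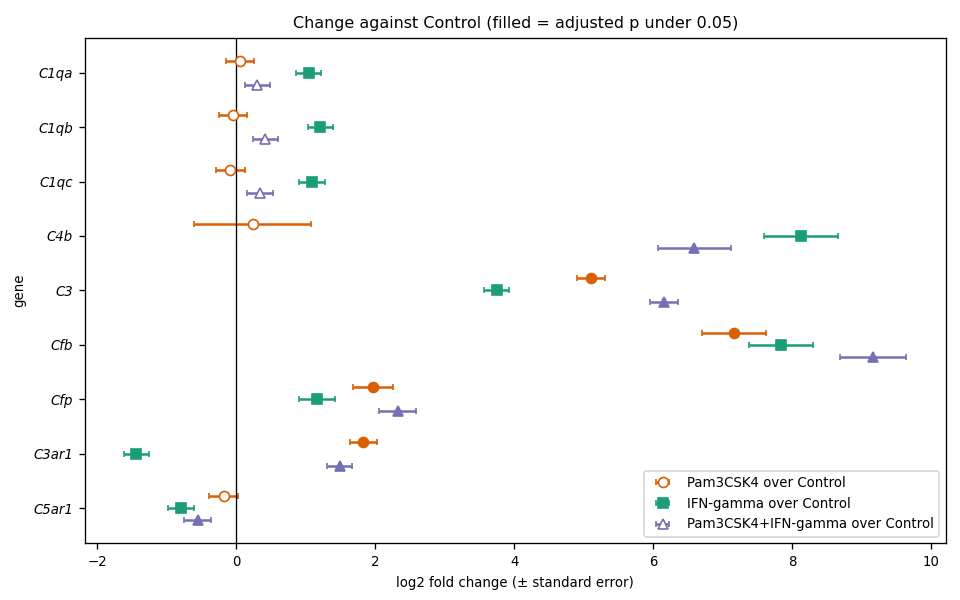
Log2 fold change of each gene against Control, with its standard error, for Pam3CSK4 (circles), IFN-gamma (squares) and the combined group (triangles). Filled symbols passed an adjusted p of 0.05; the 3 C1q subunits are called with IFN-gamma alone, and C3ar1 lies at 1.83 with Pam3CSK4 and at -1.44 with IFN-gamma.

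Neither receptor followed 1 pathway in all comparisons. Against Control, C3ar1 was called higher along with C3, Cfb and Cfp with Pam3CSK4 and with both, but lower with IFN-gamma alone. C3ar1 encodes the receptor for the C3a fragment of C3. It was at 265 and 266 FPKM with Pam3CSK4, 31.5, 23.2 and 22.1 FPKM with IFN-gamma, 187, 187 and 209.8 FPKM in the combined group and 88.2, 70.9 and 61.0 FPKM in Control. The groups did not overlap, and IFN-gamma lay below Control while both groups given Pam3CSK4 lay above it. C3ar1 rose by 1.83 ± 0.20 log2 units with Pam3CSK4 and by 1.49 ± 0.18 with both, and fell by 1.44 ± 0.18 with IFN-gamma alone (edgeR adjusted p = 5.87e-05, 8.82e-05 and 0.000177). In the combined group it was 2.92 ± 0.19 above IFN-gamma alone (edgeR adjusted p = 2.84e-06). Against Pam3CSK4 alone it was -0.34 ± 0.20 and not called (0.371), although the combined libraries were all below the Pam3CSK4 libraries; without the 3 libraries with fibroblast transcripts it was -0.39 and called (0.0238).

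C5ar1 encodes the receptor for C5a. It was at 31.6 and 40.4 FPKM with Pam3CSK4, 27.0, 19.6 and 18.9 FPKM with IFN-gamma, 24.4, 25.4 and 27.6 FPKM in the combined group and 48.5, 38.3 and 33.5 FPKM in Control. The IFN-gamma and combined libraries were below every Control library, and the Pam3CSK4 libraries overlapped Control. It fell by 0.79 ± 0.19 with IFN-gamma and fell by 0.56 ± 0.19 with both (edgeR adjusted p = 0.00774 and 0.0339), and the change with Pam3CSK4 was -0.18 ± 0.21 (0.521; approximate 95% interval -0.60 to 0.23). The call in the combined group was lost without Control replicate 1 or 2 or any 1 combined library (edgeR adjusted p = 0.0591 to 0.125). The combined group differed from IFN-gamma alone by 0.24 ± 0.19 (0.373) and from Pam3CSK4 alone by -0.38 ± 0.21 (0.352), neither called by edgeR.

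With IFN-gamma present or absent, Pam3CSK4 thus went with a shift in the make-up of these transcripts within each library. C3 made up 4.42 and 4.77% of the summed FPKM of the 9 genes with Pam3CSK4, 0.753 to 0.991% with IFN-gamma, 6.88 to 7.59% in the combined group and 0.128 to 0.169% in Control, while the C1q subunits held 86.9 to 98.1% in all libraries. C3ar1 was 8.38 and 6.58 times C5ar1 in FPKM with Pam3CSK4, 1.17 to 1.18 times with IFN-gamma, 7.38 to 7.68 times in the combined group and 1.82 to 1.85 times in Control. These ratios cancel library size. Both were higher in every library that had received Pam3CSK4 than in any that had not, in the 3 libraries with fibroblast transcripts as in the others.

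**Figure D3:**
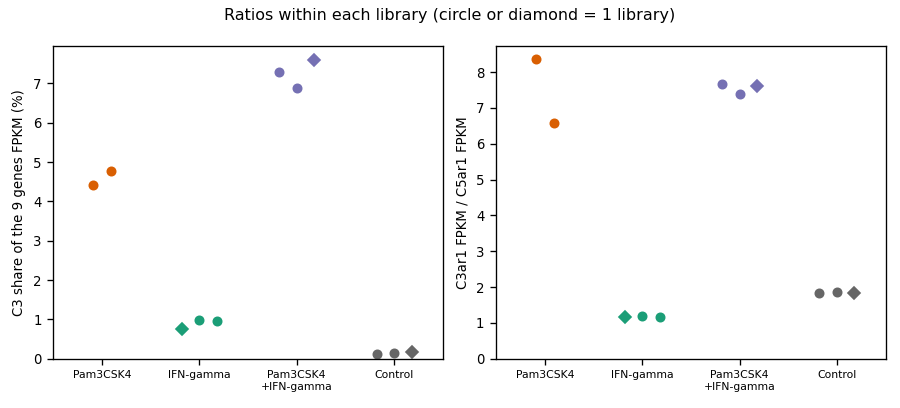
Plot of 2 ratios within each library, by group: the C3 share of the summed FPKM of the 9 genes in percent, and C3ar1 FPKM over C5ar1 FPKM. Circles and diamonds are libraries, diamonds those with mural cell and fibroblast transcripts; the C3 share reaches 7.59% in the combined group and stays at or below 0.991% without Pam3CSK4.

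For IFN-gamma added after Pam3CSK4, the number of the 9 genes called against Pam3CSK4 alone depended on the fit. Without the 3 libraries with fibroblast transcripts, 5 were called higher and 1 lower, where 20.3% of all tested genes were called. With only the compared groups fitted, 7 were called, where 24.8% of all tested genes were. With all libraries, 3 of the 9 were called, all higher (9.22% of all tested genes called, 6.12% higher and 3.11% lower). They were C4b at 6.36 ± 0.61 (edgeR adjusted p = 0.000206; 5.67 without Pam3CSK4 replicate 1 and 7.45 without replicate 2), C3 and Cfb. C1qa, C1qb and C1qc were at 0.25 ± 0.20, 0.46 ± 0.20 and 0.43 ± 0.21 and not called (edgeR adjusted p = 0.551, 0.217 and 0.277). Control replicate 3 is in neither group compared here, but the spread, the scaling and the genes tested come from all libraries of a fit. Without it, C1qb and C1qc passed the test (edgeR adjusted p = 0.00146 and 0.00688), as did the same 2 genes without all 3 libraries with fibroblast transcripts (0.00372 and 0.00864).

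Whether the effect of one agent depended on the other was tested as an interaction, the log2 effect of Pam3CSK4 with IFN-gamma minus its effect without it. Of the 9 genes, 1 was called higher and 2 lower (16.1% of all tested genes called, 8.23% higher and 7.91% lower), which is a difference of few genes from the background. C3 had an interaction of -2.70 ± 0.24 and Cfb of -5.83 ± 0.54 (edgeR adjusted p = 0.000156 and 0.000296), so on the log2 scale the agents together gave less than the sum of their separate changes. On the linear scale the order was the other way. The combined mean of C3 was 563 ± 22.4 FPKM (SD, n = 3), against 390.4 FPKM for the Pam3CSK4 mean plus the IFN-gamma mean less the Control mean. For Cfb the combined mean was 78.7 ± 4.81 FPKM (SD, n = 3), against 52.0 FPKM for that sum, and the lowest combined library lay above the sum for both genes.

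C3ar1 had a positive interaction of 1.10 ± 0.27 (edgeR adjusted p = 0.0225), which was not called without Pam3CSK4 replicate 1, Pam3CSK4 replicate 2 or IFN-gamma replicate 3 (0.0710, 0.0886 and 0.0515). C1qa, C1qb and C1qc had interactions of -0.80 ± 0.27, -0.74 ± 0.27 and -0.67 ± 0.28 and were not called (edgeR adjusted p = 0.0683, 0.0858 and 0.131). Without Control replicate 3 all 3 passed the test at -0.61, -0.55 and -0.46 (0.00599, 0.00339 and 0.0178), and so did C4b at -3.23 (0.0252), against -1.77 ± 0.94 in all libraries (0.233). The C4b value rests on few counts without IFN-gamma: 8 with Pam3CSK4 and 10 in Control, most of these in the library left out. On the linear scale the combined means of C1qa and C1qb, 2807 ± 120 and 2791 ± 48.3 FPKM (SD, n = 3 each), were below the sums of separate effects, 4820 and 4770 FPKM. Cfp and C5ar1 had interactions of -0.81 ± 0.38 and 0.42 ± 0.28, not called (edgeR adjusted p = 0.177 and 0.348). Without the 3 libraries with fibroblast transcripts, the interaction of C5ar1 was 0.69 ± 0.20 and called (edgeR adjusted p = 0.0336).

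**Figure D4:**
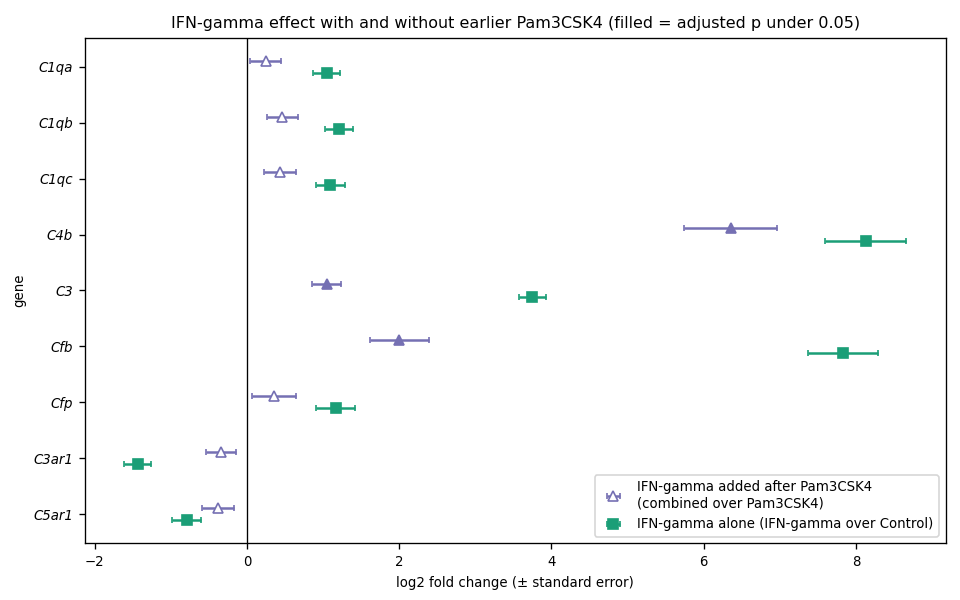
Log2 fold change of each gene, with its standard error, for IFN-gamma in cells given Pam3CSK4 first (combined over Pam3CSK4) and in cells not given it (IFN-gamma over Control). Filled symbols passed an adjusted p of 0.05; the changes of C3 and Cfb are 1.05 and 2.00 after Pam3CSK4 and 3.75 and 7.83 without it.

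Beyond these 9 genes, 51 other complement genes were grouped by role, of which 17 passed the filter on low values (at least 1 FPKM in at least 2 libraries). No gene of the terminal pathway and not Cfd, the protease that activates factor B, passed it. Against Control, 1 of the 17 was called higher and 8 lower with Pam3CSK4 (19.8% and 21.4% of all tested genes), 6 higher and 4 lower with IFN-gamma (20.0% and 21.6%), and 3 higher and 8 lower with both (23.2% and 24.2%). Counting both directions, 41.3%, 41.6% and 47.3% of all tested genes were called in these comparisons, while 8, 7 and 6 of the 17 were not called. The 17 genes were not tested as a set. Against IFN-gamma alone, the combined group had 0 higher and 10 lower (16.8% and 17.3% of all tested genes). Without the 3 libraries with fibroblast transcripts, the counts against Control were 4 higher and 9 lower with Pam3CSK4, 10 and 4 with IFN-gamma, and 5 and 8 with both, where 54.6%, 48.4% and 54.5% of all genes tested in that fit were called in either direction. In the same fit the combined group had 2 higher and 11 lower than IFN-gamma alone, where 21.1% of all tested genes were higher and 20.3% lower.

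Of the soluble regulators, 2 of 12 were tested. Of these, Serping1 encodes C1 inhibitor, which blocks the C1 proteases. It was at 0 and 0.0227 FPKM with Pam3CSK4, 26.6, 15.1 and 15.9 FPKM with IFN-gamma, 2.47, 2.33 and 3.74 FPKM in the combined group and 0, 0 and 0.730 FPKM in Control, the last in the Control library with fibroblast transcripts. It was thus detected at 1 FPKM or more in the libraries given IFN-gamma and in no other. It rose by 6.37 ± 1.08 with IFN-gamma against Control (edgeR adjusted p = 0.00230; 2727 and 37 counts). The other 2 Control libraries had 0 counts, so no fold is given without the third. In the combined group it was -2.76 ± 0.87 against IFN-gamma alone (edgeR adjusted p = 0.0422), though the libraries did not overlap. That call was lost without any 1 library given Pam3CSK4, IFN-gamma or both. Without the 3 libraries with fibroblast transcripts the change was -2.71 ± 0.17 and called (edgeR adjusted p = 9.37e-06).

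Of the classical and lectin pathway genes, 5 of 15 were tested. C2, which joins C4 in the C3-cleaving enzyme, was at 0.872 and 0.536 FPKM with Pam3CSK4, 2.77, 3.14 and 3.56 FPKM with IFN-gamma, 2.42, 3.05 and 2.37 FPKM in the combined group and 0.743, 0.840 and 0.267 FPKM in Control. It rose with IFN-gamma by 2.43 ± 0.41 (edgeR adjusted p = 0.00123); Gm20547 and Zbtb12 overlap it, and reads of overlapping genes may be split. The C1 proteases C1ra and C1s1 did not pass the test with IFN-gamma (2.16 ± 0.93 and 2.57 ± 1.35, edgeR adjusted p = 0.0961 and 0.167). C1s1 was at 5.94, 2.39 and 2.46 FPKM with IFN-gamma and at 0.0260, 0.0124 and 2.02 FPKM in Control, and the highest value of each group was in its library with fibroblast transcripts. Without the 3 such libraries both passed the test, at 4.11 ± 0.46 and 6.95 ± 0.43 (edgeR adjusted p = 0.000169 and 3.59e-06); this pair is named after its values were seen. With Pam3CSK4 against Control, C1ra and C1s1 were at -0.52 ± 1.05 and -1.77 ± 1.64 and not called (edgeR adjusted p = 0.717 and 0.421). Without those libraries they were at 1.67 ± 0.53 and 3.13 ± 0.63 and called higher (edgeR adjusted p = 0.0275 and 0.00273). These calls rest on few counts and on levels below 1 FPKM. With Pam3CSK4, C1ra was at 0.532 to 0.95 FPKM (73 counts) and C1s1 at 0.118 to 0.264 FPKM (32 counts). The Control libraries left had C1s1 at 0.0260 and 0.0124 FPKM.

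Masp1, a lectin pathway protease, was 1.25 ± 0.30 higher with IFN-gamma than in Control and fell by 1.33 ± 0.30 in the combined group against IFN-gamma alone (edgeR adjusted p = 0.00766 and 0.00706). With Pam3CSK4 it was -1.01 ± 0.35 (edgeR adjusted p = 0.0413), a call lost in 8 of 11 fits that left out a library (0.0514 to 0.221). Colec12, a scavenger receptor of the collectin family, fell by 1.99 ± 0.22 with Pam3CSK4 and fell by 1.94 ± 0.18 with IFN-gamma (edgeR adjusted p = 6.51e-05 and 2.95e-05). With both it was at -1.87 ± 0.18 against Control, and its interaction was 2.06 ± 0.28 (edgeR adjusted p = 2.19e-05 and 0.00138).

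Of the other receptors, 8 of 10 were tested, and 7 of these 8 were called lower in the combined group than with IFN-gamma alone, against 17.3% of all tested genes. Itgax, a subunit of complement receptor 4, was at 36.7 and 30.0 FPKM with Pam3CSK4, 194, 311 and 319 FPKM with IFN-gamma, 46.4, 40.3 and 36.7 FPKM in the combined group and 192, 269 and 159 FPKM in Control. It fell by 2.67 ± 0.32 with Pam3CSK4 against Control and fell by 2.75 ± 0.28 in the combined group against IFN-gamma alone (edgeR adjusted p = 0.000136 and 5.03e-05). Itgam, the alpha subunit of complement receptor 3, fell by 0.72 ± 0.18 in the first of these comparisons and fell by 0.81 ± 0.16 in the second (edgeR adjusted p = 0.0114 and 0.00383; the first was 0.0964 without Pam3CSK4 replicate 1), and its partner Itgb2 fell in the second by 0.68 ± 0.18 (0.0139). With the counts of an overlapping row of the same symbol added, Itgam was at -0.85 and -0.66, both called.

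C5ar2, the neighbour of C5ar1 and a second C5a receptor, fell by 3.00 ± 0.37 with Pam3CSK4, fell by 1.69 ± 0.30 with IFN-gamma and fell by 3.16 ± 0.31 with both, all against Control (edgeR adjusted p = 0.000140, 0.00136 and 2.24e-05). Among genes known as C1q receptors or binders, Cd93 fell by 2.28 ± 0.39 with IFN-gamma (edgeR adjusted p = 0.00133; -2.87 without IFN-gamma replicate 1). Lrp1, an endocytic receptor, fell by 0.97 ± 0.14 with Pam3CSK4 and fell by 1.17 ± 0.12 with IFN-gamma (edgeR adjusted p = 0.000394 and 5.65e-05). Calr, which encodes calreticulin, rose by 0.41 ± 0.115 with Pam3CSK4 and by 0.81 ± 0.10 with IFN-gamma (edgeR adjusted p = 0.0165 and 0.000210). Of the 6 membrane regulators 2 were tested, and Cr1l, which encodes the rodent C3 convertase inhibitor Crry, fell by 0.43 ± 0.12 with Pam3CSK4 (edgeR adjusted p = 0.0190). That call was lost without Pam3CSK4 replicate 2, which left no replicate in that group. The other, Cd59a, named after its values were seen, was at 0.35 ± 0.55 with Pam3CSK4 and not called (edgeR adjusted p = 0.638). Without the 3 libraries with fibroblast transcripts, Cd59a was at 1.12 ± 0.30 and called higher (0.0119).

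**Figure D5:**
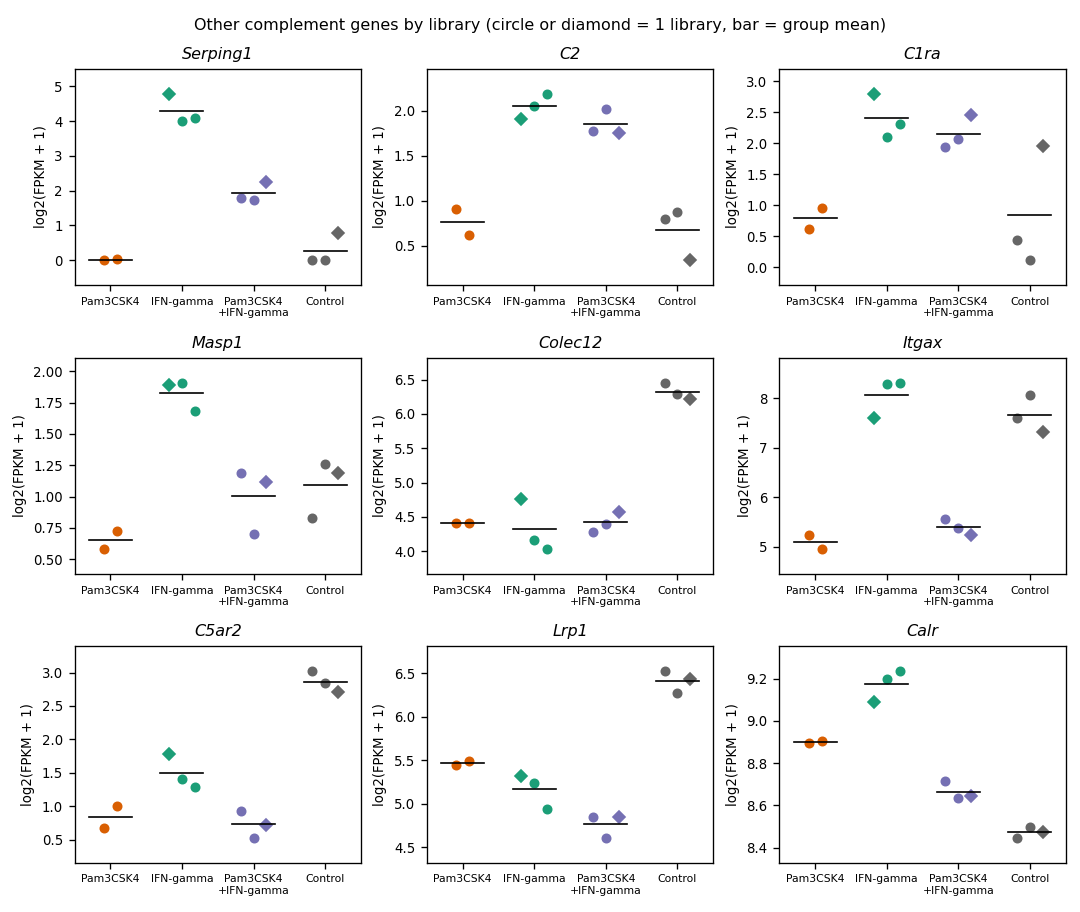
FPKM of 9 other complement genes as log2(FPKM + 1) in each library, by group, with circles and diamonds for libraries, diamonds for the 3 with mural cell and fibroblast transcripts, and bars for group means; each panel has its own vertical range, which does not start at 0. Itgax is low in every library given Pam3CSK4, and Serping1 is at 1 FPKM or more in the libraries given IFN-gamma alone or after Pam3CSK4.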

How the data were processed

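Per the file headers, the authors deposited 1 table with a whole-number count of reads per gene and library, with an FPKM beside it. The tools, per the submitters' processing notes and with no role stated, were Cuffdiff, Cufflinks 2.1.1 and TopHat2 2.1.0 on mm10. How reads were counted (tool, annotation, strand, shared reads) is not given in the sources used here. From the deposited counts, 10938 genes that reached 1 FPKM in 2 or more libraries were fitted in R 4.3.3 with edgeR 4.0.16 (TMM scaling, robust quasi-likelihood test, 4 group means over all 11 libraries, no replicate block, two-sided, Benjamini-Hochberg adjustment over all tested genes, threshold 0.05). The script was tested on simulated data. Standard errors are the log2 change over the square root of F, and intervals are approximate 95% intervals from them. FPKM values describe levels; they scale with library totals and carry no TMM factor.

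The 15033702 to 20321017 counts per library limit precision for genes with few counts, and count intervals cover counting error only. Replicate pairs differed beyond sampling noise (chi-square per gene 10.8 to 110.5 over 10 pairs), so none was counted as 1 sample. All 9 members are named in every comparison. Of the other 51 complement genes, those called for either agent over Control, for both agents over IFN-gamma or for the interaction were eligible, by role and size of change. The members, gene lists and left-out libraries were chosen with earlier results of these data known. The alternatives were DESeq2 1.42.0 with its size factors, RLE scaling, no filter, a replicate block, each library left out, the 3 libraries with fibroblast transcripts left out and only the compared groups fitted. Library totals alone and the added counts of overlapping genes were chosen after seeing the data. Of the genes eligible by role, 1 is not reported here.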

Additional observations from a re-analysis of the deposited data

Results flagged for a closer look

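Some genes had an effect of Pam3CSK4 that differed between cells given IFN-gamma and cells not given it, by the test of that difference in edgeR. Among the 9 genes these were C3 (-2.70, adjusted p = 0.000156), Cfb (-5.83, 0.000296) and C3ar1 (1.10, 0.0225), each the log2 effect in the presence of IFN-gamma minus that in its absence. Among the other complement genes they were Colec12 (2.06, edgeR adjusted p = 0.00138), C5ar2 (1.53, 0.0452), Calr (-0.93, 0.00400) and C1qbp (-0.59, 0.0467). The calls of C5ar2 and C1qbp were lost when 8 and 9 of the 11 libraries were left out in turn (0.0584 to 0.157 and 0.0611 to 0.214).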

How the results depend on the processing

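Counts of the 9 genes called moved by over 1.5 times in 2 comparisons. For the combined group against Pam3CSK4 alone, 3 were called; leaving out each library gave 1 to 5 (1 without Pam3CSK4 replicate 1, 5 without Control replicate 3), leaving out the 3 libraries with fibroblast transcripts gave 6, and fitting only the compared groups gave 7. The share of all tested genes called moved too, from 9.22% to 4.08%, 19.1%, 20.3% and 24.8% in these 4 fits. For the interaction, 3 were called; leaving out each library gave 2 to 7 (7 without Control replicate 3), leaving out the 3 libraries gave 8, DESeq2 gave 6 and library totals alone gave 5, where the share of all tested genes, 16.1% in all libraries with edgeR, was 30.5% without Control replicate 3, 29.6%, 22.5% and 17.3%. The cause was not tested. The same counts under the other alternatives, and those of the other 4 comparisons under all of them, stayed within 1.5 times. Leaving out each library gave 4 to 6 with Pam3CSK4, 9 with IFN-gamma and 5 to 7 with both, all against Control. It gave 8 between the combined group and IFN-gamma alone. The share of all tested genes called moved in these fits too. Against Control it was 33.1 to 49.7% with IFN-gamma and 39.5 to 56.6% with both. With Pam3CSK4 against Control it was 35.5 to 52.5% where both Pam3CSK4 libraries were kept. Between the combined group and IFN-gamma alone it was 24.4 to 45.8%.

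Uncalled changes with Pam3CSK4 against Control turned in sign. C1qa was at -0.13 without the 3 libraries, and C1qb at 0.026 with no filter. Leaving out each library gave -0.13 to 0.17 for C1qa, -0.24 to 0.10 for C1qb, -0.28 to 0.035 for C1qc, -0.85 to 1.70 for C4b and -0.38 to 0.005 for C5ar1. Of 1525 log2 changes recomputed, 62 lost their call, 32 gained one and 11 turned. Adding the overlapping counts of Gm20547 put the interaction of Cfb at -4.68, still called. Library totals moved the median change of all tested genes from -0.07 to -0.18 with IFN-gamma against Control and from -0.001 to -0.10 for the combined group against Pam3CSK4.

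Whether replicate numbers pair the libraries could not be decided. Of 15 same-numbered pairs, 6 had deviations from their group means that correlated above 0.1 (range -0.72 to 0.72). The libraries with fibroblast transcripts correlated with each other at 0.715 to 0.81, same-numbered or not, which can hide a smaller effect of pairing. Deviations within so small a group also depend on each other. With a replicate block the counts called were 4, 9, 5, 8, 3 and 3. The order is Pam3CSK4, IFN-gamma and both against Control, both against IFN-gamma, both against Pam3CSK4, and interaction. In the same order, 38.1%, 38.4%, 44.6%, 30.4%, 6.89% and 12.9% of all tested genes were called under the block. Of the 9 genes the call lost was that of C5ar1 with both against Control (edgeR adjusted p = 0.0527). Among the other complement genes, Masp1 with Pam3CSK4 against Control, Serping1 with both against IFN-gamma and C5ar2 in the interaction were also not called under the block (edgeR adjusted p = 0.0827, 0.0560 and 0.0536).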

Other observations

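The genes whose log2(FPKM + 1) was most like that of each complement gene over the 11 libraries are given as a description, by Pearson's r among tested genes. C4b was most like Bst1, Upp1 and Il12rb1 (r = 0.995, 0.995 and 0.994), C3 like Ifit1, Xaf1 and Cd69 (0.994, 0.992 and 0.992) and Cfb like H2-Q5, Ifit2 and Oasl1 (0.996, 0.995 and 0.994). Cfp was most like Cdk2ap2 (0.977), C3ar1 like Srxn1, Rabep2 and Ccl3 (0.994, 0.992 and 0.990) and C5ar1 like Ndrg2 (0.977). The points share groups, depth and library.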
